A study of Mus musculus with 8 samples.

Results

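Hepcidin and the genes of iron uptake, storage and export were examined in the livers of KK-Ay mice fed a persimmon peel (PP) extract. The genes are Hamp, Scara5, Tfrc, Tfr2, Slc40a1, Fth1, Bmp6, Id1 and Trf, and they were taken as every probe set of the array whose annotation gives 1 gene symbol equal to 1 of these names. This rule found 15 of the 45037 probe sets tested, for 8 of the 9 genes, out of 18193 genes with such a probe set. Trf, the gene of the plasma iron carrier transferrin, lay only on a probe set that it shares with another gene and is not reported. For Tfrc the array also carries 3 control probe sets, which are given as values with no test.

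Liver RNA was measured on Affymetrix GeneChip mouse genome arrays, with 1 array per mouse, in 4 mice fed the PP extract diet (PD) and 4 fed the control diet (CD). All were male KK-Ay mice aged 14 weeks, an obese model of type 2 diabetes that carries the yellow allele of the agouti gene. PD mice had eaten AIN-93G diet with 1 g of PP extract per kg for 8 weeks and CD mice the same diet without the extract, and both were fasted for 3 h. The livers were not a random draw: from 6 PD and 7 CD mice, those with total plasma ketone bodies near the average of their group were used, as the methods of the study state. Values are log2 expression indices, a summary of the brightness of each probe set, and differences between the diets are on this log2 scale. The brightness of different probe sets cannot be compared as amounts of mRNA. Percentiles of mean signal are given only to say how bright a probe set was. Hepatocyte markers were bright, with 9 of 10 measured, each at or above the 98.2nd percentile of all probe sets in mean signal.

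Iron reaches hepatocytes on transferrin through its receptors, the products of Tfrc and Tfr2, and also in ferritin, for which Scara5 is a receptor. It is stored in ferritin, of which Fth1 codes for the heavy chain, and leaves the cell through ferroportin, the product of Slc40a1. Hepcidin, the product of Hamp, is a peptide hormone made by hepatocytes that removes ferroportin from the cell surface. Its transcription is driven by bone morphogenetic proteins such as Bmp6 through SMAD factors, which also drive Id1, and by interleukin 6 through STAT3, which also drives acute-phase genes. Tfr2 is part of the sensing of transferrin iron that feeds into Hamp.

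Both inputs have known sites near the start of Hamp, so its promoter is shown beside that of Hamp2, the mouse paralog. The sequences are from RefSeq on GRCm38.p6 and hold the 250 bases before each start, read on the minus strand, at chr7:30944030-30944279 for Hamp and chr7:30924182-30924431 for Hamp2. Capitals mark GGCGCC, the letters of the BMP response element, and TTCNNNGAA, the letters of a STAT site.
Hamp: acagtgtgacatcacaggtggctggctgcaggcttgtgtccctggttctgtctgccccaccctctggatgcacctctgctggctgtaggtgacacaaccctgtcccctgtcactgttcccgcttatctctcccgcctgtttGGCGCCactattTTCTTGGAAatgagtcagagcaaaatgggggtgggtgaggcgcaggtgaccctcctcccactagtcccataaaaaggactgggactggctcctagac
Hamp2: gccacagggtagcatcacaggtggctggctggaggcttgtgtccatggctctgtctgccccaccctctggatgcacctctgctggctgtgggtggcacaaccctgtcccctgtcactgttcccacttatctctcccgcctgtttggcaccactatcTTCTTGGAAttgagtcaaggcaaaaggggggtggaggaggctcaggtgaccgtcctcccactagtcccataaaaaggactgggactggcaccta
In Hamp the GGCGCC match began 109 bases before the start and the STAT match, TTCTTGGAA, began 97 bases before it. Hamp2 held the same TTCTTGGAA 94 bases before its start and no GGCGCC. At the matching place, 106 bases before the start, the letters of Hamp2 differ by the substitution G4A, counted from 1 at the first base of GGCGCC in Hamp. Searched on both strands, GGCGCC was present in 9.59% of 32851 promoter windows of the same length, TTCNNNGAA in 7.02% and both in 0.368%, and the motifs in Hamp do not overlap. Promoter windows were at hand for 5 of the 9 genes, 9 windows in all. The other match among them was GGCGCC in 1 of the windows of Tfrc, 89 bases before that start. A match says only that the letters are there.

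Of the iron genes, the ferritin receptor Scara5 and the transferrin receptor Tfrc were called lower in PD mice by the rank product, each on 1 probe set. No gene was called higher. In the rank product, which the study used, each of the 16 possible pairings of a PD and a CD array is ranked by its ratios, and calls are made below a false discovery rate (FDR) of 0.1. It called 2 of the 15 probe sets lower, against 0.26% of all probe sets, and 0 higher, against 0.213%. The rank product does not set a difference against the spread between mice, and both called probe sets varied widely. Their SD within a diet was at the 95.5th percentile of all probe sets for Scara5 and the 99.0th for Tfrc. limma, which sets each difference against the spread between mice, called 0 of the 15 at an adjusted p under 0.1, as it did for 0% of all probe sets, with a lowest adjusted p of 0.998. At an unadjusted p under 0.05 limma found 2, Scara5 and Tfr2, where 3.65% of all probe sets passed. The PD and CD mice overlapped on each of the 15 probe sets, and 2.08% of all probe sets had groups that did not overlap. Over the 15 probe sets 9 differences (PD minus CD, log2) were above 0 and 6 below, with a median of 0.01, beside −0.00 over all probe sets. An exact permutation test on 4 mice per diet cannot give a two-sided p below 0.0286.

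**Figure D1:**
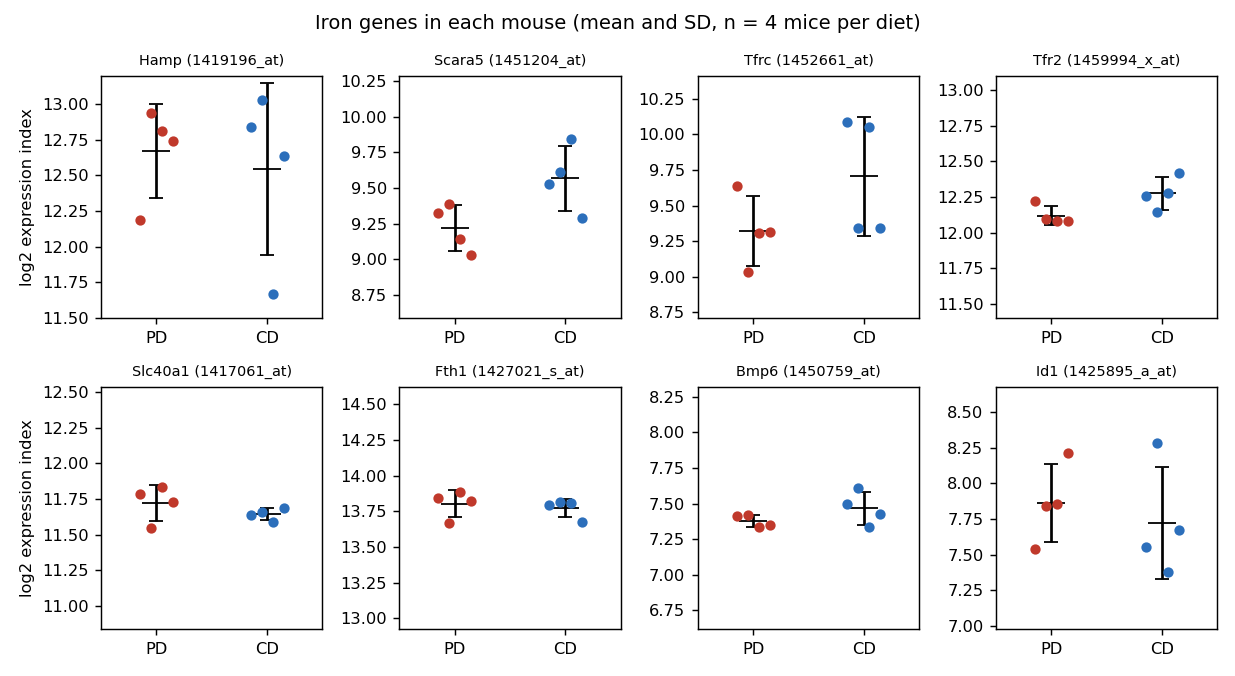
Log2 expression index (vertical axis, the same span in each panel) of 8 iron genes in each liver, by diet, on the brightest probe set of each gene. Dots are mice and the bars give the mean and SD of 4 mice per diet. The 4 PD mice of Scara5 lie between 9.03 and 9.38, against 9.29 to 9.84 in CD mice, and 2 of the CD mice carry the high Tfrc values.

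Scara5, the receptor that takes up ferritin, was called lower in PD mice by the rank product, on 1 of its 2 probe sets. Its probe set 1451204_at read 9.33, 9.38, 9.14 and 9.03 in PD replicates 1 to 4, against 9.53, 9.61, 9.84 and 9.29 in CD replicates 1 to 4. Only CD replicate 4 fell within the range of the PD mice. Means were 9.22 ± 0.16 in PD and 9.57 ± 0.23 in CD mice (SD, n = 4 each), a difference of −0.35 (standard error 0.11, 95% interval −0.59 to −0.10), or 0.786 of the CD level. The rank product gave an FDR of 0.0731, limma an unadjusted p of 0.0105 and an adjusted p of 0.998, and the exact permutation test p = 0.0857. The call was lost without PD replicate 3 (difference −0.32, FDR 0.133), PD replicate 4 (−0.28, FDR 0.207), CD replicate 1 (−0.36, FDR 0.245), CD replicate 2 (−0.33, FDR 0.337) or CD replicate 3 (−0.26, FDR 0.548), and with dim probe sets left out (−0.35, FDR 0.104). The second probe set of Scara5, 1431336_at, did not follow the first between mice (r = −0.0812, Spearman rho = −0.0476, exact permutation p = 0.848 and 0.935, adjusted p = 0.848 over 8 pairs of probe sets, r = 0.0703 without the 2 most distant mice). It read 7.43, 7.23, 7.48 and 7.35 in PD replicates 1 to 4, against 7.49, 7.45, 7.32 and 7.40 in CD replicates 1 to 4. Its groups overlapped throughout, with a difference of −0.05 (95% interval −0.18 to 0.09), and averaging both probe sets gave −0.20 with the call lost (FDR 0.495).

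Tfrc, the receptor by which most cells take up transferrin iron, was also called lower in PD mice by the rank product, on 1 of its 3 tested probe sets. The probe set 1452661_at read 9.64, 9.04, 9.31 and 9.32 in PD replicates 1 to 4, against 10.08, 9.34, 10.05 and 9.34 in CD replicates 1 to 4. The CD mice stood in pairs: replicates 1 and 3 were above each PD mouse, while replicates 2 and 4 lay within the PD range. The mean was 9.32 ± 0.25 in PD and 9.70 ± 0.42 in CD mice (SD, n = 4 each), a difference of −0.38 (standard error 0.19, 95% interval −0.79 to 0.03). The rank product gave an FDR of 0.0664, limma an unadjusted p of 0.0667 and an adjusted p of 0.998, and the exact permutation test p = 0.143. The call was lost without CD replicate 1 (difference −0.25, FDR 0.643), CD replicate 3 (−0.26, FDR 0.583) or PD replicate 2 (−0.28, FDR 0.185).

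The other probe sets of Tfrc did not show this difference. On 1422966_a_at the values were 6.50, 6.61, 6.81 and 6.61 in PD replicates 1 to 4, against 6.56, 6.48, 6.57 and 6.50 in CD replicates 1 to 4, a difference of 0.10 (95% interval −0.04 to 0.24). On 1422967_a_at they lay between 6.16 and 6.39 in PD mice, against 6.16 to 6.36 in CD mice, a difference of 0.08. Both were dim, at the 24.9th and 12.1th percentile of all probe sets in mean signal, and 1452661_at was at the 90.9th. Between mice, the correlation of 1452661_at was −0.221 with 1422966_a_at and 0.254 with 1422967_a_at (exact permutation p = 0.611 and 0.50; Spearman rho = −0.595 and −0.0238, p = 0.132 and 0.977; adjusted p = 0.698 and 0.667; r = −0.372 and 0.337 without the 2 most distant mice). The control probe set for the 3′ end of Tfrc read 7.13 to 7.38 in PD mice and 7.17 to 7.39 in CD mice, and those for the 5′ end and the middle reached at most 6.31 and 6.17 in PD mice and 6.33 and 6.20 in CD mice. The groups overlapped on all 3 control probe sets, with differences of −0.00, 0.00 and −0.04. Averaged over its 3 tested probe sets, Tfrc differed by −0.07 and was not called (FDR 0.998). In whole liver, fewer cells of a type and less RNA per cell cannot be told apart for any of these genes.

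Tfr2, the transferrin receptor of hepatocytes, was the remaining gene with an unadjusted p under 0.05. Its probe set 1459994_x_at read 12.22, 12.10, 12.09 and 12.08 in PD replicates 1 to 4, against 12.26, 12.15, 12.28 and 12.42 in CD replicates 1 to 4. PD replicates 2 to 4 lay below each CD mouse, and PD replicate 1 lay within the CD range. The difference was −0.16 (standard error 0.06, 95% interval −0.29 to −0.02), with an unadjusted p of 0.0311 by limma, an exact permutation p of 0.0571 and a rank product FDR of 0.816, so it was not called. On 1425381_a_at the difference was −0.10 (95% interval −0.27 to 0.08), with PD mice at 11.53 to 11.73 and CD mice at 11.58 to 11.95. The 2 probe sets followed each other between mice (r = 0.855, exact permutation p = 0.00868, adjusted p = 0.0347; rho = 0.714, p = 0.0576), but less without the 2 most distant mice (r = 0.515, p = 0.369).

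For storage and export no difference was detected. Fth1, the ferritin heavy chain, read 13.85, 13.67, 13.88 and 13.82 in PD replicates 1 to 4, against 13.79, 13.82, 13.81 and 13.68 in CD replicates 1 to 4 on 1427021_s_at. Its differences were 0.03 (95% interval −0.10 to 0.16) and 0.01 (−0.11 to 0.12 on 1448771_a_at), and within a diet its SD was 0.08 and 0.07, near the 0.08 that is the median of all probe sets. Slc40a1, ferroportin, read 11.79, 11.55, 11.83 and 11.73 in PD replicates 1 to 4, against 11.64, 11.66, 11.59 and 11.69 in CD replicates 1 to 4 on 1417061_at. Of the PD mice, 3 lay above each CD mouse and PD replicate 2 lay below each of them. The difference was 0.08 (95% interval −0.06 to 0.22) on this probe set and 0.01 (−0.16 to 0.18) on 1448566_at. The probe sets of Slc40a1 followed each other (r = 0.823, exact permutation p = 0.0144, adjusted p = 0.0378; rho = 0.833, p = 0.0154; r = 0.656 without the 2 most distant mice), while those of Fth1 rested on the 2 most distant mice (r = 0.821, adjusted p = 0.0378; rho = 0.619; r = 0.0207 without them, exact permutation tests).

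**Figure D2:**
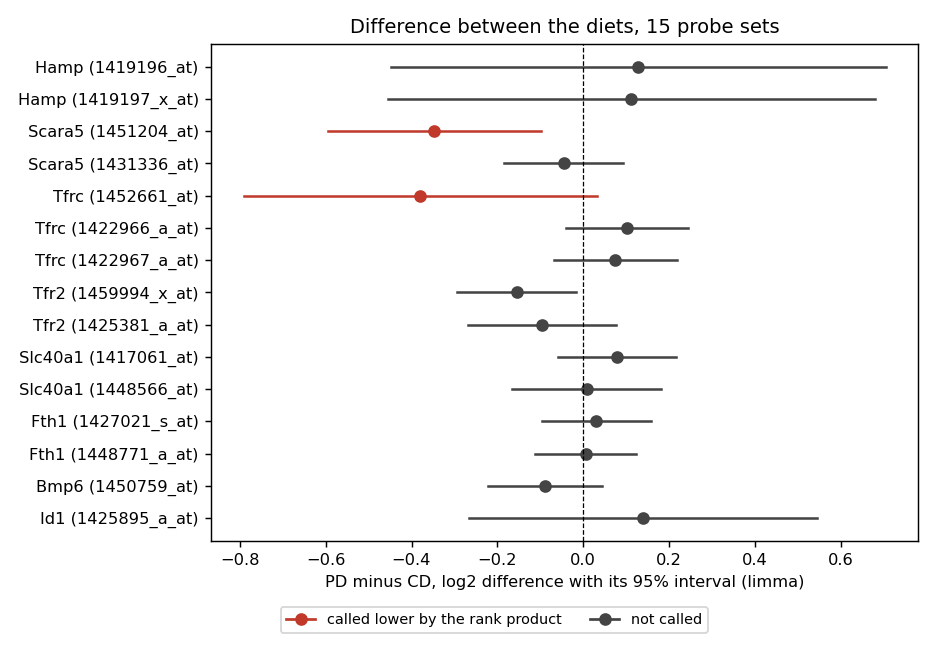
Difference between the diets (horizontal axis, PD minus CD, log2) for the 15 probe sets, with its 95% interval from limma. Red marks the 2 probe sets called lower by the rank product, Scara5 at −0.35 and Tfrc at −0.38, and the intervals of Hamp and Id1 are wide, from −0.45 to 0.71 for Hamp 1419196_at and from −0.27 to 0.55 for Id1.

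Hamp, the hepcidin gene, did not differ detectably between the diets but varied widely between mice. Its probe set 1419196_at read 12.19, 12.94, 12.81 and 12.74 in PD replicates 1 to 4, against 12.84, 13.03, 11.67 and 12.64 in CD replicates 1 to 4. The lowest 2 mice were PD replicate 1 and CD replicate 3, 1 of each diet, and the other 6 lay between 12.64 and 13.03. Means were 12.67 ± 0.33 in PD and 12.54 ± 0.60 in CD mice (SD, n = 4 each). The difference was 0.13 (standard error 0.26, 95% interval −0.45 to 0.71, exact permutation p = 0.743), and without CD replicate 3 it was −0.16. The second probe set, 1419197_x_at, ordered the mice alike (r = 0.999, rho = 1, exact permutation p = 2.48e-05 and 4.96e-05, adjusted p = 1.98e-04, r = 0.993 without the 2 most distant mice) and differed by 0.11. The range over the 8 mice was 1.36 on the log2 scale, and the SD within a diet, 0.49, was at the 99.6th percentile of all probe sets.

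Bmp6 and Id1, the ligand and the target gene of the BMP input, did not differ detectably either. Bmp6, which sinusoidal endothelial cells of the liver supply, read 7.41, 7.42, 7.33 and 7.35 in PD replicates 1 to 4, against 7.50, 7.61, 7.33 and 7.43 in CD replicates 1 to 4. The difference was −0.09 (95% interval −0.22 to 0.04, exact permutation p = 0.20), and CD replicates 1, 2 and 4 lay above each PD mouse. Id1, an inhibitor of helix-loop-helix transcription factors, read 7.54, 7.84, 7.86 and 8.21 in PD replicates 1 to 4, against 7.55, 8.28, 7.38 and 7.67 in CD replicates 1 to 4. It was highest in PD replicate 4 and CD replicate 2, and its lowest 3 mice were PD replicate 1, CD replicate 1 and CD replicate 3. The difference was 0.14 (95% interval −0.27 to 0.55, exact permutation p = 0.543), with an SD within a diet of 0.34, at the 99.0th percentile.

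Whether Hamp followed Id1 or the acute-phase genes between mice was tested over 14 relations, 5 on the BMP side, 8 acute-phase genes and the mean of 23 acute-phase genes. None passed an adjusted p of 0.05 (lowest 0.286), and 2 had an unadjusted p under 0.05. With Id1 the correlation was 0.707 (exact permutation p = 0.0451, adjusted p = 0.316) and Spearman rho was 0.714 (p = 0.0576, adjusted p = 0.403). The 2 mice lowest in Hamp, PD replicate 1 and CD replicate 3, were also the lowest in Id1, at 7.54 and 7.38. Without PD replicate 4 and CD replicate 2, the mice most distant in Id1, r was 0.828 (exact permutation p = 0.0458, adjusted p = 0.107), and within diets it was 0.699 (p = 0.113). Leaving out 1 mouse gave r from 0.580, without CD replicate 3, to 0.822, without CD replicate 1. Of 2 pairs chosen after the values were seen, leaving out CD replicates 3 and 4 gave 0.564 (exact permutation p = 0.260, adjusted p = 0.727). Leaving out PD replicate 2 and CD replicate 4 gave 0.742 (exact permutation p = 0.0917, adjusted p = 0.160). Each of these runs kept at least 1 of PD replicate 1 and CD replicate 3, the 2 mice low in both genes. The relation with Id1 was not tested without both, so the runs do not show whether it rests on these 2 mice. For comparison, 1370 probe sets of named genes were taken, with an SD over the mice of at least 0.2 and a mean above the median. Of these, 5.47% had a larger r in size with Hamp than Id1 did. The share was 1.75% for Socs3 and 70.4% for Saa1, whose values follow below.

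With the mean of the acute-phase genes the correlation of Hamp was −0.216 (exact permutation p = 0.569, adjusted p = 0.903; rho = −0.381, p = 0.360, adjusted p = 0.545), and within diets it was −0.178 (p = 0.762). That mean was 11.53, 11.77, 11.27 and 11.35 in PD replicates 1 to 4, against 11.38, 11.29, 11.75 and 12.60 in CD replicates 1 to 4. PD replicate 2 and CD replicate 4 were the highest, and Hamp in them, at 12.94 and 12.64, was not low. Without these 2 mice, the most distant in this mean, r was −0.974 (exact permutation p = 0.0111, adjusted p = 0.0519). This value depends on which mice were left out: PD replicate 2 and CD replicate 3, the mouse lowest in Hamp, were nearly level in this mean. Without CD replicates 3 and 4, a pair chosen after the values were seen, r was −0.157 (exact permutation p = 0.749), and without CD replicate 4 alone it was −0.543 (exact permutation p = 0.165). The same 2 mice were the most distant for Orm1, an acute-phase plasma protein, with r of −0.0595 over 8 mice and −0.982 over 6 (exact permutation p = 0.903 and 0.00139, adjusted p = 0.903 and 0.0194). Lcn2, an iron siderophore binding protein of the acute phase, gave −0.120 and −0.964 (exact permutation, adjusted p = 0.903 and 0.0389), Saa2 gave −0.136 and −0.896 and Saa1 −0.176 and −0.816. Without CD replicates 3 and 4 instead, Orm1 gave 0.0345, Lcn2 −0.0893, Saa2 −0.0044 and Saa1 0.142. Saa3, Saa4 and Hp gave 0.126, −0.260 and −0.239 over 8 mice. Their most distant mice were others, CD replicates 2 and 4 for Saa3 (r = 0.274 without them), PD replicate 1 and CD replicate 3 for Saa4 (0.0528) and CD replicates 3 and 4 for Hp (0.141). In the 6 mice without PD replicate 2 and CD replicate 4, Hp gave −0.872, Saa4 −0.373 and Saa3 0.367, so the acute-phase genes did not all run one way against Hamp.

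Socs3, the feedback inhibitor of interleukin 6 signaling, had the lowest p of the family, with r = −0.789 (exact permutation p = 0.0204, adjusted p = 0.286) and rho = −0.548 (p = 0.171). It read 9.47, 8.40, 7.42 and 7.66 in PD replicates 1 to 4, against 7.72, 8.15, 9.39 and 8.55 in CD replicates 1 to 4. PD replicate 1 and CD replicate 3, the lowest 2 mice in Hamp, were the highest 2 in Socs3, and without them r was 0.00456 (p = 0.989, exact permutation). For Id1 this pair was not left out together, so the values of Id1 and Socs3 without 2 mice are not alike. On the BMP side, Smad6 is an inhibitory SMAD and was listed, like Id1, among the BMP and SMAD target genes. Unlike Id1 it ran opposite to Hamp, with r = −0.516 and rho = −0.786 (exact permutation p = 0.186 and 0.0279, adjusted p = 0.664 and 0.391). Within diets its r was −0.754 (exact permutation p = 0.0330, adjusted p = 0.231). Bmp6 gave r = 0.508 (p = 0.190, exact permutation, adjusted p = 0.664), Smad7 0.194 and Atoh8 0.0822. The difference between the correlations with Id1 and with acute-phase genes was not tested.

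**Figure D3:**
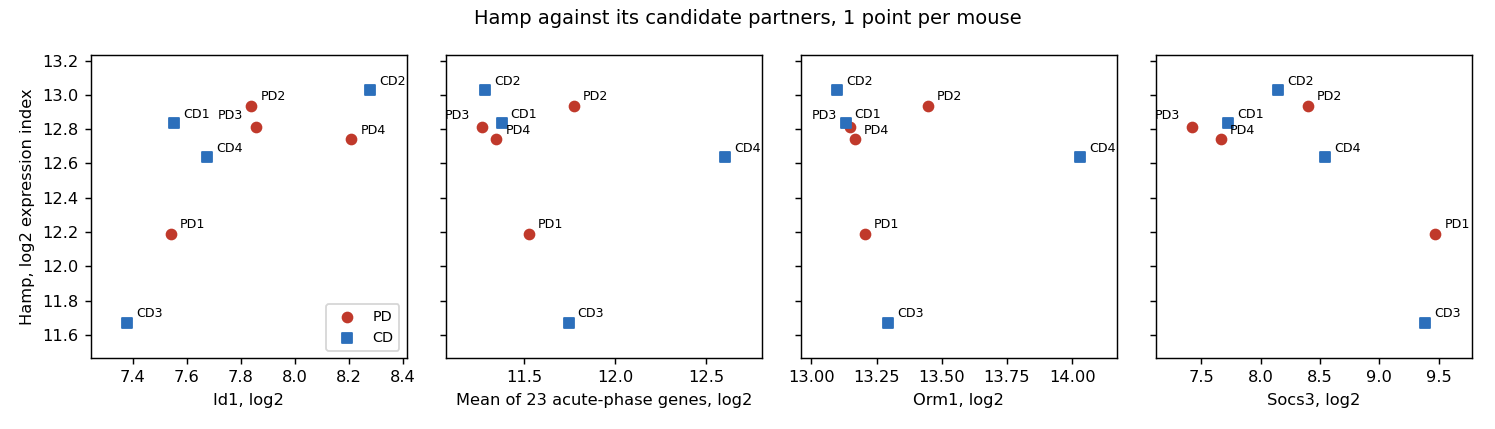
Hamp (vertical axis, log2 expression index) against Id1, the mean of 23 acute-phase genes, Orm1 and Socs3 (horizontal axes, log2 expression index), with 1 point per mouse and PD as circles and CD as squares. PD1 and CD3, the lowest 2 mice in Hamp, are lowest in Id1 and highest in Socs3, while PD2 and CD4 stand to the right of the other 6 mice for the acute-phase mean.

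The genes most like Hamp between mice were named as the 5 probe sets of highest r, as a description. Hamp2 was the first (r = 0.954 over 8 mice), with 10.22, 10.57, 10.66 and 10.51 in PD replicates 1 to 4, against 10.88, 10.85, 9.66 and 10.50 in CD replicates 1 to 4. CD replicate 3 was the lowest and PD replicate 1 the next, as for Hamp. Hamp and Hamp2 are close copies, and both a Hamp and this Hamp2 probe set carry the suffix that Affymetrix gives to those that can detect several genes, so their signals may not be separate. The next were Mok (0.839), Elp4 (0.813), Zfp185 (0.790) and Mcm10 (0.774).

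For Tfrc the most like was a probe set of Cp, the plasma ferroxidase ceruloplasmin (1441326_at, r = 0.960 over 8 mice). It read 7.82, 6.91, 7.48 and 7.11 in PD replicates 1 to 4, against 8.50, 7.54, 8.27 and 7.12 in CD replicates 1 to 4, and was called lower (difference −0.53, FDR 0.0145). CD replicates 1 and 3 were again the highest, and the call was lost without CD replicate 1 (−0.31) or CD replicate 3 (−0.39). The brighter Cp probe set, 1417494_a_at, differed by −0.04. On 1417497_at the difference was 0.12, higher in PD mice (unadjusted p = 0.0258, limma), and the groups did not overlap, as on 2.08% of all probe sets. Insig2, an anchor of sterol sensing in the endoplasmic reticulum, followed Tfrc on both its probe sets (r = 0.954 and 0.942), and Slc45a3 (0.945) and Eif1a (0.940) came next. In Insig2 (1417980_a_at) the values were 11.77, 11.07, 11.42 and 11.44 in PD replicates 1 to 4, against 12.00, 11.38, 11.87 and 11.24 in CD replicates 1 to 4. The genes most opposite to Tfrc, looked at after its values were seen, were Nrg4 (r = −0.970), Slc43a1 (−0.944), Aqp11 (−0.942), the clock gene Per3 (−0.936) and Mterf2 (−0.935). Per3 was called higher in PD mice, with a difference of 0.46.

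**Figure D4:**
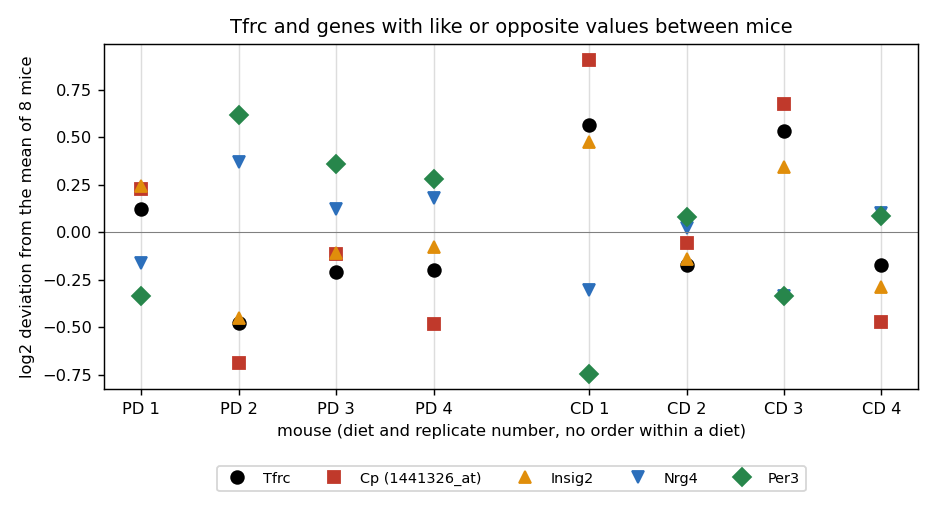
Deviation on the log2 scale from the average over all 8 mice (vertical axis) of Tfrc (1452661_at), Cp (1441326_at), Insig2, Nrg4 and Per3 in each mouse (horizontal axis), PD mice at the left and CD mice at the right. Tfrc, Cp and Insig2 stand above 0 in PD replicate 1 and CD replicates 1 and 3 and below it in the other 5 mice, and Nrg4 and Per3 stand the other way in each mouse.

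For Scara5 the 5 nearest were Fos (r = 0.861), Errfi1 on both its probe sets (0.845 and 0.818), Tnfrsf1b (0.830) and Irf2bp2 (0.804). Fos, an immediate early transcription factor, read 7.16, 7.01, 6.90 and 7.01 in PD replicates 1 to 4, against 7.31, 7.27, 7.68 and 7.28 in CD replicates 1 to 4. Each CD mouse was above each PD mouse, where 2.08% of all probe sets had groups that did not overlap. The rank product called Fos lower (difference −0.36). Errfi1, an inhibitor of the epidermal growth factor receptor, was called lower on 1 of its probe sets (1419816_s_at, −0.31). All 3 sets of nearest genes were drawn from about 1370 probe sets by their likeness to these mice, so no test applies.

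Among the other genes of iron uptake, storage, export and control, 2 were called, Steap3 and Cp, each on 1 probe set that is not the brightest of its gene. Of 9 iron uptake genes, each on its brightest probe set, 8 were below 0 and 1 above, with a median of −0.12. Over all 45037 probe sets 23804 were below 0 and the median was −0.00. The 9 include Tfrc, Scara5 and Tfr2, given above, and the calls were the 2 of Tfrc and Scara5. Among all 24 probe sets of the 9 genes 3 were called lower, against 0.26% of all probe sets. The third call was on Steap3, the iron reductase of endosomes (1453498_x_at, −0.46, FDR 0.0714). It was lost without PD replicate 1 (−0.20) and without each CD mouse in turn. The brightest probe set of Steap3 differed by −0.04, and that of Slc11a2, the divalent metal transporter, by −0.18 without a call. Another probe set of Steap3, 1430355_a_at, differed by −0.19 (unadjusted p = 0.0451, limma) and was not called. The 4 measured storage and chaperone genes were all above 0, by a median of 0.04, with 0 called. Of 5 measured genes of export and plasma transport 1 was above and 4 were below 0 (median −0.04), with 0 called on the brightest probe sets. Among all 13 of their probe sets 1, that of Cp given above, was called lower. Of 17 measured genes of hepcidin control 8 were above and 9 below 0 (median −0.00), with 0 called. Hfe, which works with Tfr2 in sensing iron, differed by −0.13, Hjv, the BMP coreceptor, by 0.04 and Tmprss6, the protease that cleaves it, by −0.09, and none was called. A second Hamp2 probe set, 1456289_at, differed by 0.11 (unadjusted p = 0.0433, limma).

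Of the 7 BMP and SMAD target genes 5 were above and 2 below 0 (median 0.08), with 0 called. Id2 differed by 0.20 on its brightest probe set and by −0.28 on 1453596_at (unadjusted p = 0.0095, limma), which was not called. Of the 3 iron sensing genes, Ireb2 and Fbxl5 differed by 0.13 each and Aco1 by −0.07, and of 4 mitochondrial iron genes 2 were above and 2 below 0, with 0 called in both lists. All 23 measured acute-phase genes were below 0 (median −0.18), with 4 called lower, Saa1, Saa2, Lcn2 and Socs3. Among all 37 of their probe sets 8 were called lower, against 0.26% of all probe sets. Of these 8, 1 of Saa4 (1419319_at) had groups that did not overlap, as did 2.08% of all probe sets. This probe set read 10.61 to 10.88 in PD mice and 10.99 to 11.36 in CD mice (difference −0.46, FDR 0.0144, unadjusted p = 3.81e-04, limma). Its difference stayed at −0.42 without CD replicate 3 (FDR 0.159) and −0.40 without CD replicate 4 (FDR 0.102), though neither was called. The common direction on the brightest probe sets rested on CD replicate 4: without it 14 of the 23 were below 0, the median was −0.04, 0 were called lower and 1 higher, and without CD replicate 3 likewise 0 were called lower and 1 higher. Of the 8 interleukin 6 signaling genes 3 were above and 5 below 0 (median −0.13), with Il6ra and Socs3 called lower. Among all 22 of their probe sets 3 were called lower, against 0.26% of all probe sets. On the brightest probe sets 0 were called in 5 of the 8 runs that left out 1 mouse.

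Markers of other liver cells were measured beside these genes. The mean of 13 Kupffer cell and macrophage markers was 8.79 to 8.88 in PD mice, against 8.52 to 9.05 in CD mice, highest in CD replicate 3, the mouse lowest in Hamp. The mean of 12 stellate cell and fibroblast markers was 8.45 to 8.53 in PD mice, against 8.27 to 8.58 in CD mice. It was likewise highest in CD replicate 3, where Scara5 was highest. CD replicates 1, 2 and 4, at 8.37, 8.27 and 8.34, lay below each PD mouse in these markers. Of these, CD replicate 2 was the lowest in the markers and the next highest mouse in Scara5, at 9.61. The mean of 12 sinusoidal endothelial markers was 8.56 to 8.71 in PD mice and 8.62 to 8.77 in CD mice. For red blood cell precursors, which carry much transferrin receptor, 5 of 11 markers were measured, with a mean of 8.22 to 8.39 in PD mice and 8.30 to 8.53 in CD mice. CD replicates 1 and 3, the highest in Tfrc, were the lowest 2 of the CD mice in these markers, at 8.34 and 8.30. PD replicate 2 went the other way, lowest of the 8 mice in these markers, at 8.22, and in Tfrc (1452661_at), at 9.04. Of 8 measured neutrophil markers 1 was above and 7 below 0, with a mean of 7.51 to 7.60 in PD mice and 7.59 to 7.67 in CD mice. Above and below 0 stood 6 and 5 lymphocyte, 2 and 3 bile duct and 3 and 1 fat cell markers. None of the Kupffer, endothelial, red cell precursor, neutrophil, lymphocyte or bile duct markers was called. Called higher were 1 stellate marker, Col3a1, and 1 fat cell marker, against 0.213% of all probe sets. Called lower was 1 hepatocyte marker, Tat, against 0.26%. The part of these cells in the results was not tested.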

How the data were processed

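Each array was hybridised with RNA amplified from 100 ng, and the authors turned its scan into a model-based expression index in R 2.7.2 (version per the submitters' processing notes), which they deposited on the log2 scale and which was used unchanged. For the normalization of arrays against each other, a method is not given in the sources used. Of 45101 probe sets 64 controls were left out. The platform annotation gave 34945 of the 45037 tested a single symbol, gave 932 more than 1 symbol and left 9160 unnamed. The median of an array was 7.09 to 7.16, any 2 arrays correlated at 0.991 to 0.996, and the number of arrays limits the precision.

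The rank product (1000 permutations, FDR under 0.1) was run in Python 3.11.15 with numpy 2.4.6. The second test was limma 3.58.1 (R 4.3.3) over every tested probe set, with Benjamini-Hochberg adjustment. Code was tested on simulated data. For single values a two-sided exact permutation test ran over the 70 splits of the 8 mice, and for correlations over all pairings, adjusted over 14 relations and 8 pairs of probe sets. In lists each gene stood by its probe set of highest mean. The genes, lists, partners of Hamp and tests were chosen with earlier results of these data known. Named were the member genes, list genes with a call or an unadjusted p under 0.05, the partners of Hamp and the 5 probe sets most like Hamp, Tfrc and Scara5. Other list genes and the opposite patterns were named after their values were seen, and not each gene the rule covers is named. The labels call the mice biological replicates, and replicate numbers did not pair them. The alternatives were quantile normalization, centring on the median, adding 16 before taking logs, leaving out the dimmest 25.0% of probe sets or those named as able to detect other genes, an FDR of 0.05, 100 permutations, a replicate block, trend and robust variances, the t-test of the methods, gene means, and leaving out each mouse. For the lists, leaving out each mouse was added after seeing the data, as was leaving out the same 2 mice for every partner of Hamp.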

Additional observations from a re-analysis of the deposited data

Results flagged for a closer look

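In 7 of 58 groups of 4 mice examined, 1 mouse lay far from the other 3, with a gap to its neighbour beyond Dixon's 95% critical share of the range, which chance gives in about 5% of groups. Tfr2 (1459994_x_at) was high in PD replicate 1, at 12.22, beside 12.08 to 12.10 in the other PD mice. Slc40a1 (1448566_at) was high in CD replicate 4, at 9.437, beside 9.21 to 9.23. Fth1 (1427021_s_at) was low in CD replicate 4, at 13.68, beside 13.79 to 13.82. The 3′ control probe set of Tfrc was low in PD replicate 2, at 7.133, beside 7.35 to 7.38. Among the partners of Hamp, Smad6 was high in PD replicate 1, at 7.426, beside 7.08 to 7.09. Saa1 and Hp were high in PD replicate 2, at 12.15, beside 10.58 to 10.69, and at 13.81, beside 13.54 to 13.55.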

How the results depend on the processing

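The rank product count of iron probe sets called lower, 2 as reported, was 1 with dim probe sets left out, 0 at an FDR under 0.05 and 0 to 2 when 1 mouse was left out, with 0 without CD replicate 1 or CD replicate 3. Averaging all probe sets of a gene ended the calls of Scara5 (−0.20) and Tfrc (−0.07). The t-test of the methods without adjustment called 1 of the 15 probe sets, and 0 after Benjamini-Hochberg adjustment. With a replicate block limma called 0 of the 15, with differences as reported and unadjusted p of 0.00451 for Scara5 and 0.00708 for Tfrc (adjusted p = 1.00). The block changed no limma call. Same-numbered mice did not deviate together (correlations −0.06 to −0.00), so the numbers are not taken as pairs. Leaving out 1 mouse turned the sign of differences near 0, which ranged from −0.16 to 0.29 for Hamp 1419196_at, −0.17 to 0.28 for Hamp 1419197_x_at, −0.081 to 0.0018 for Scara5 1431336_at, −0.029 to 0.077 for Slc40a1 1448566_at, −0.0020 to 0.076 for Fth1 1427021_s_at and −0.031 to 0.034 for Fth1 1448771_a_at. It also turned the correlation of Hamp with Smad7 (−0.245 to 0.346), Atoh8 (−0.0330 to 0.209), Saa4 (−0.605 to 0.551), Lcn2 (−0.304 to 0.0182) and Orm1 (−0.231 to 0.0512), and quantile normalization turned that with Atoh8 (−0.175). Leaving out CD replicates 3 and 4 for every partner turned that with Saa1 (0.142), Saa4 (0.835, adjusted p = 0.0194, exact permutation), Hp (0.141) and Orm1 (0.0345). Leaving out PD replicate 2 and CD replicate 4 for every partner brought Orm1 (−0.982) and Lcn2 (−0.964) past an adjusted p of 0.05. Hamp with Id1 ranged from 0.580 to 0.822 and with the acute-phase mean from −0.543 to −0.117. Of the lists, iron uptake kept 8 or 9 of 9 genes below 0 in each of the 8 runs that left out 1 mouse, with 0 to 2 called. These runs share most of their mice. Quantile normalization, centring on the median and 16 added before the log2 kept each call of the iron probe sets, and the cause of the changes was not tested.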

Other observations

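The probe sets most opposite to Hamp between mice, named after their values were seen, were 2 of Gbp6 (r = −0.907 and −0.899 over 8 mice), Ctnnbl1 (−0.885), the interferon regulatory factor Irf1 (−0.884) and the receptor Notch1 (−0.871). Irf1 read 9.61, 9.10, 9.30 and 9.20 in PD replicates 1 to 4, against 9.01, 8.99, 9.57 and 9.26 in CD replicates 1 to 4, highest in PD replicate 1 and CD replicate 3. Gbp6, an interferon-induced guanylate binding protein (1438676_at), read 8.55, 7.71, 8.09 and 8.27 in PD replicates 1 to 4, against 7.85, 7.72, 8.66 and 8.10 in CD replicates 1 to 4, and these same 2 mice were the highest. Neither gene was called between the diets, with differences of 0.10 for Irf1 and of 0.07 and −0.06 for the probe sets of Gbp6.

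Opposite to Scara5, and likewise named after their values were seen, were Nmrk1 (−0.845), Hsd3b3 (−0.810), Lrat (−0.801), Stard4 (−0.800) and Mpst (−0.791). Nmrk1, a kinase that makes NAD precursors, and Mpst, a sulfurtransferase, were called higher in PD mice, with differences of 0.35 and 0.40.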
